A study of Mus musculus with 29 samples.

Results

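The glucocorticoid receptor (GR) was mapped in the liver of wild-type (WT, GR+/+) mice at 6pm and at 6am, and the regions it occupied at both times of day were compared. The regions were taken from the ChIP-seq peak lists of the 2 times, matched wherever peaks overlapped by at least 1 bp, and the borders of GR ChIP-exo at the same times were laid over them. Both lists together gave 14414 merged regions, of 15329 in all 6 GR ChIP-seq lists of the series, and 4 of the 29 samples carry the comparison. The animals were males of 12 weeks, littermates of GRdim mutants, backcrossed to BALB/c and kept under 12 h of light and 12 h of dark. Livers were taken as the light phase began (6am) or as the dark phase began (6pm), from groups whose titles name no prednisolone. The liver was used whole, so each signal is a sum over all its cell types. GR was precipitated with 2 antibodies (PA1-511A and sc-1004), and per the labels 2 replicates were pooled into each list. There is therefore 1 measurement per time, no spread between replicates and no test. Intervals cover the counting of peaks or tags only, except that those of median ratios are taken over regions. Each difference is between 2 lists.

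GR is a nuclear receptor that stays in the cytoplasm until it binds glucocorticoid hormone, then enters the nucleus and binds DNA, often at enhancers already held open by other factors. In liver it is known for controlling genes of glucose, amino acid and lipid metabolism. In nocturnal rodents the level of corticosterone in blood is highest around the start of the dark phase and low at the start of the light phase, and 6pm and 6am fall at those points of the cycle. GRdim is a point mutant of the DNA-binding domain that impairs receptor dimerization, and C/EBPβ is a leucine zipper factor abundant in liver whose sites often lie beside those of GR. Lists of both are used below as measurements that did not choose the regions: GR ChIP-seq and ChIP-exo in GRdim mice at 6am and 6pm, C/EBPβ ChIP-seq in WT mice at 6am and 6pm, and GR ChIP-seq in WT mice given prednisolone pellets (12 mg/kg) for 24 h and collected at 6am. All positions are in mm9 and name no genes, since the annotation used here belongs to another build.

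Nearly every region bound at 6am was bound at 6pm as well, and most regions bound at 6pm were listed at that time alone. The 6am list held 5781 peaks and the 6pm list 14270. Of the 6am peaks, 5637 (97.5%, Wilson 95% interval 97.1% to 97.9%) overlapped a 6pm peak, always one to one. These 5637 shared regions made up 39.5% of the 6pm list (38.7% to 40.3%). The 6pm list alone held 8633 regions, 59.9% of the 14414, and the 6am list alone held 144, which is 0.999% of them. The evening list thus contained the morning list almost whole and added to it.

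The score that the authors gave each peak, of unstated unit, ran from 2.02 to 23.56 at 6am (median 2.89) and from 2.01 to 26.35 at 6pm (median 3.36). Binding too weak to reach the lowest score is not listed, and absence from a list is not absence of GR. The share of 6pm peaks that were also listed at 6am climbed steeply with their score. It was 4.21% of the 3443 peaks with scores from 2 to 2.5, 10.96% of those from 2.5 to 3 and 27.5% of those from 3 to 4. Above that it was 71.1% for scores from 4 to 6 and 96.8% for those from 6 to 10, and all 507 peaks of 10 or more were listed at 6am. In the other direction the share hardly depended on score: 95.2% of the weakest class of 6am peaks and 100% of the 415 with scores from 6 to 10 were listed at 6pm. Regions seen at 1 time lay mostly lower in the ranking, though not only there: 930 of the 8633 6pm-only peaks and 8 of the 144 6am-only peaks scored at least 4. The first 6pm peak with no 6am peak stood at rank 673 of 14270, and the first 6am peak with no 6pm peak at rank 566 of 5781.

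**Figure D1:**
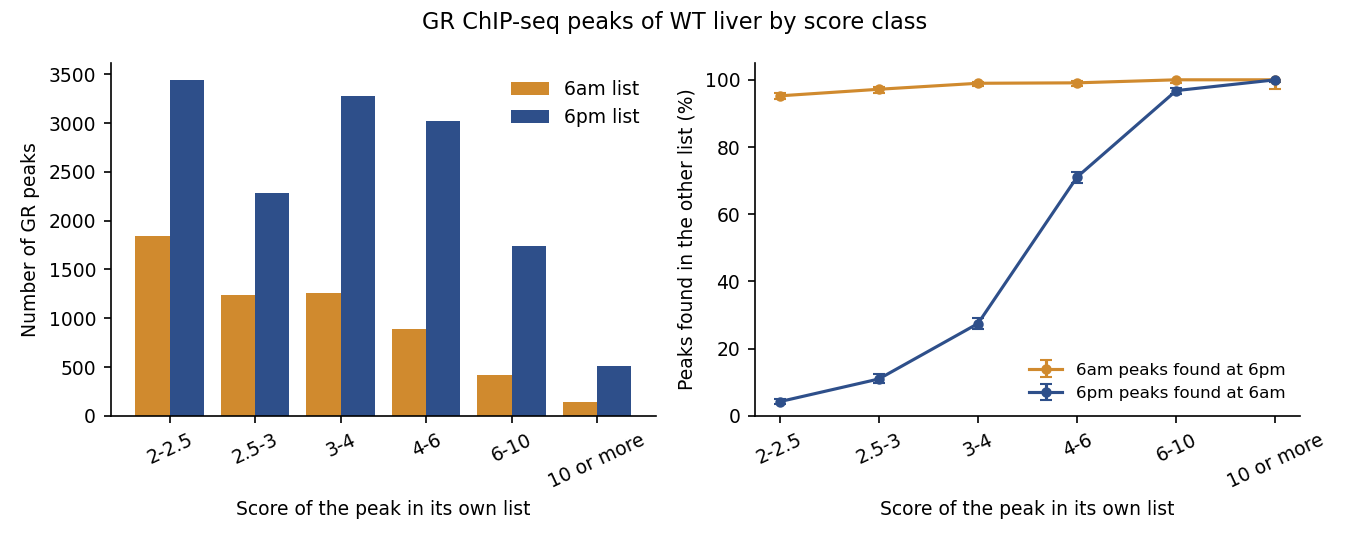
Left, number of GR peaks in 6 score classes of the 6am and 6pm lists. Right, percent of the peaks of each class found in the other list, with Wilson 95% intervals as bars; the 6pm curve runs from 4.21% to 100%, while the 6am curve stays at or above 95.2%.

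The 6pm list was longer in every class, and more so at high scores: it held 1.87 times as many peaks as the 6am list between 2 and 2.5, 4.202 times as many between 6 and 10, and 3.65 times as many at 10 or more. Scores of different lists need not share a scale, so the lists were also cut to equal length. Of the 100 strongest peaks of each time, 78 overlapped (78.0%, 68.9% to 85.0%). The share was 73.6% for the first 500, 75.3% for the first 2000 and 78.6% for the first 5781. At equal length part of the strongest regions of 1 time were therefore not among the strongest of the other, although those at the head of each list were present in both: the 100 strongest 6am peaks stood at rank 767 or better there, and the 100 strongest 6pm peaks at rank 364 or better at 6am.

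Within the 5637 shared regions the order of strength was kept in part. Ranked again among themselves, their scores at the 2 times had a Spearman rho of 0.738 (n = 5637 regions, which share their libraries; given as a description). The median region moved by 11.2 percentile points, 46.2% moved by no more than 10 points, 75 gained over 50 points and 106 lost over 50. The strongest regions moved least. Of the 563 regions in the top 10% at 6am, 411 (73.0%) were in the top 10% at 6pm, against 171 of 586 (29.2%) for the bottom 10%. The centres of the paired peaks lay a median of 15 bp apart, and 92.5% within 50 bp.

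**Figure D2:**
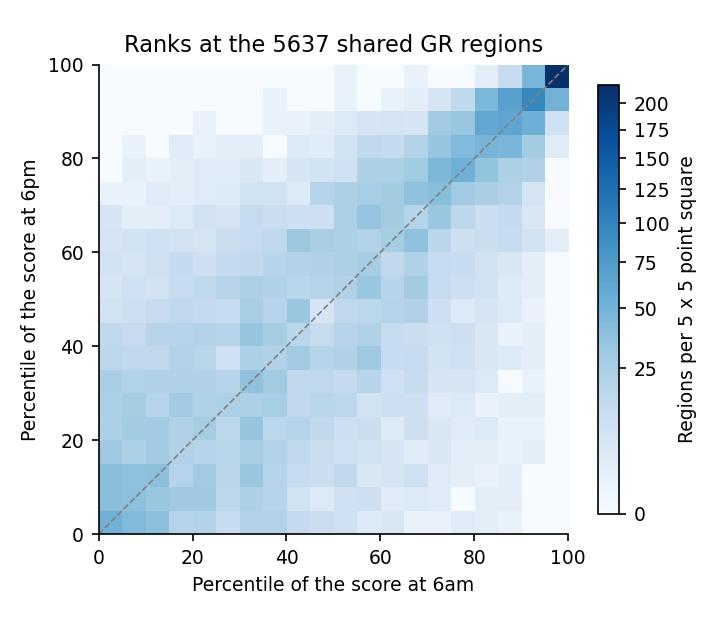
Percentile of the score at 6am (x axis) against that at 6pm (y axis) for the 5637 shared regions, as the number of regions in squares of 5 by 5 points (darker is more; square-root colour scale). Regions crowd at the upper right corner, where 411 of 563 regions of the top 10% at 6am stayed in the top 10%, and spread widely in the lower left.

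The 3 strongest regions at 6am were also among the strongest at 6pm. The first, chr2:167670163-167670362, scored 23.56 at 6am and 25.47 at 6pm. The second, chr7:71041830-71042029, scored 23.41 and 26.16, and the third, chr4:150059310-150059509, 22.95 and 26.35. All 3 were listed in GRdim at both times, after prednisolone in WT, and by C/EBPβ at both times. ChIP-exo adds an exonuclease step that trims the DNA up to the bound protein, so that each site is read as borders of 10 bp on 1 strand, with a count of tags and an RPM value, the same count scaled to library size. The listed borders inside the chr2 region held 3367 tags (60.4 RPM) at 6am and 4230 tags (98.1 RPM) at 6pm, a ratio of 1.62 (exact 95% interval for counting 1.55 to 1.70). At the chr7 region the values were 75.6 and 83.8 RPM, a ratio of 1.11 (1.06 to 1.16), and at the chr4 region 65.0 and 102.0 RPM, a ratio of 1.57 (1.502 to 1.641). PCR copies were not marked, so these intervals are too narrow for molecules.

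Across the shared regions ChIP-exo was also higher at 6pm per tag of the library. The 6am library of 55.7 M tags had 66573 listed borders with a median of 0.233 RPM, and the 6pm library of 43.1 M tags had 54636 with a median of 0.417 RPM. Borders from both libraries were present at 5261 of the 5637 shared regions (93.3%). Their RPM, summed per region, had a median log2 ratio of 6pm to 6am of 0.58 (1.49-fold), and over regions the 5th and 95th percentiles lay at -1.40 and 2.28. In total the shared regions held 1.52 times the RPM at 6pm, on 301.2 kb of listed borders at 0.750 RPM per border, against 375.7 kb at 0.395 RPM at 6am. Fewer but higher borders were thus listed at 6pm.

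How far these ratios lie above 0 depends on what a library is divided by. Listed nuclear borders took 2.10% of the 6am library and 3.10% of the 6pm library, so dividing by listed nuclear tags in place of all tags lowers each log2 ratio by 0.56 and brings the median of the shared regions to 0.015. On the scale of library tags, 3214 of the 8995 merged regions with borders at both times (35.7%) were at least 2-fold higher at 6pm and 765 (8.5%) at least 2-fold lower, so 80.8% of the changes of that size were upward. On the scale of listed nuclear tags the counts were 1676 and 1540, with 52.1% upward. Differences of median log2 ratios between groups are the same on either scale, while shares past 2-fold and ratios of single regions or chains are not. Those printed are per library tag and become 1.48 times smaller per listed nuclear tag, where the chr7 region above turns to 0.751 (0.718 to 0.785) and the chr2 and chr4 regions come to 1.10 and 1.06.

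Regions that gained rank in ChIP-seq gained in ChIP-exo relative to the others. The shared regions were divided into 5 equal groups by the change of their rank, from the largest falls (group 1, median change -26.3 points) to the largest rises (group 5, 25.4 points). The median log2 ChIP-exo ratio was -0.32 in group 1, 0.31 in group 2, 0.69 in group 3, 0.86 in group 4 and 1.18 in group 5, where groups 1 and 2 lie below 0 and groups 3 to 5 above it when divided by listed nuclear tags (-0.88, -0.25, 0.13, 0.30 and 0.62). ChIP-exo did not enter the ranking, and the order of the 5 groups was the same in both assays. The labels do not say whether both assays of a time used the same chromatin, and if they did, the likeness of the assays is not separate evidence of a difference between times. At least 2-fold higher RPM at 6pm was seen at 9.40% of group 1 and 56.9% of group 5, beside the 35.7% of all regions, and at least 2-fold lower RPM at 25.5% of group 1 and 2.81% of group 5, beside 8.5%. Per listed nuclear tag the higher shares were 3.17% and 33.7%, beside 18.6% of all regions, and the lower shares 45.4% and 6.65%, beside 17.1%. Region by region, the rank change and the log2 ratio had a rho of 0.482 (n = 5261). Within each time, too, the score followed the ChIP-exo tags closely, with a rho of 0.819 at 6am (n = 5503) and 0.848 at 6pm (n = 5367).

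The rank changes were shared in part by GRdim mice, whose lists come from other animals. At the 2590 regions listed in both genotypes at both times, the rank change in WT and that in GRdim had a rho of 0.457, and 1739 (67.1%) changed in the same direction. The median rank change in GRdim was -20.3 points at group 1 of WT and 13.5 points at group 5. The median log2 ratio of GRdim ChIP-exo was -0.01 at group 1 (n = 419 regions) and 1.22 at group 5 (n = 455). A GRdim peak at 6pm was found at 56.3% of group 1 and 85.3% of group 5, beside 75.5% of all shared regions. The groups also differ in 6pm score, with medians of 4.06 in group 1 and 5.63 in group 5. GRdim listing at 6pm climbed with that score, from 22.1% of shared regions at 2 to 2.5 to 95.5% at 10 or more. At 6am the shares were 43.7% and 39.8%, beside 48.0%, and this order turned to 46.5% and 47.2% with groups formed within 10 classes of mean rank.

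C/EBPβ occupied most shared regions at both times and was less frequent where GR lost rank. A C/EBPβ peak was listed at 80.8% of the shared regions at 6am and 88.3% at 6pm. By group of rank change, the 6am share was 68.6%, 77.7%, 86.6%, 87.0% and 84.2%, and the 6pm share was 74.3%, 86.1%, 93.9%, 93.7% and 93.5%. The step lay between groups 1 and 3, and groups 3 to 5 were within 3 points of each other at each time. Group 5 exceeded group 1 by 19.2 points at 6pm (Newcombe 95% interval 16.3 to 22.2) and by 15.6 points at 6am (12.1 to 19.0). Because the rank of a region limits how far it can move up or down, the groups were also formed within 10 classes of mean rank, where the difference was 20.8 points at 6pm (17.9 to 23.7) and 17.96 points at 6am (14.6 to 21.3). Where both factors were listed at both times, their rank changes had a rho of 0.375 (n = 4500). The difference was 10.1 points at 6pm among regions with a score of at least 4 in either list. Even within the classes of mean rank, groups 1 and 5 had median 6pm scores of 4.28 and 6.32. C/EBPβ listing at 6pm climbed with that score, from 55.2% of shared regions at 2 to 2.5 to 96.6% at 10 or more.

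**Figure D3:**
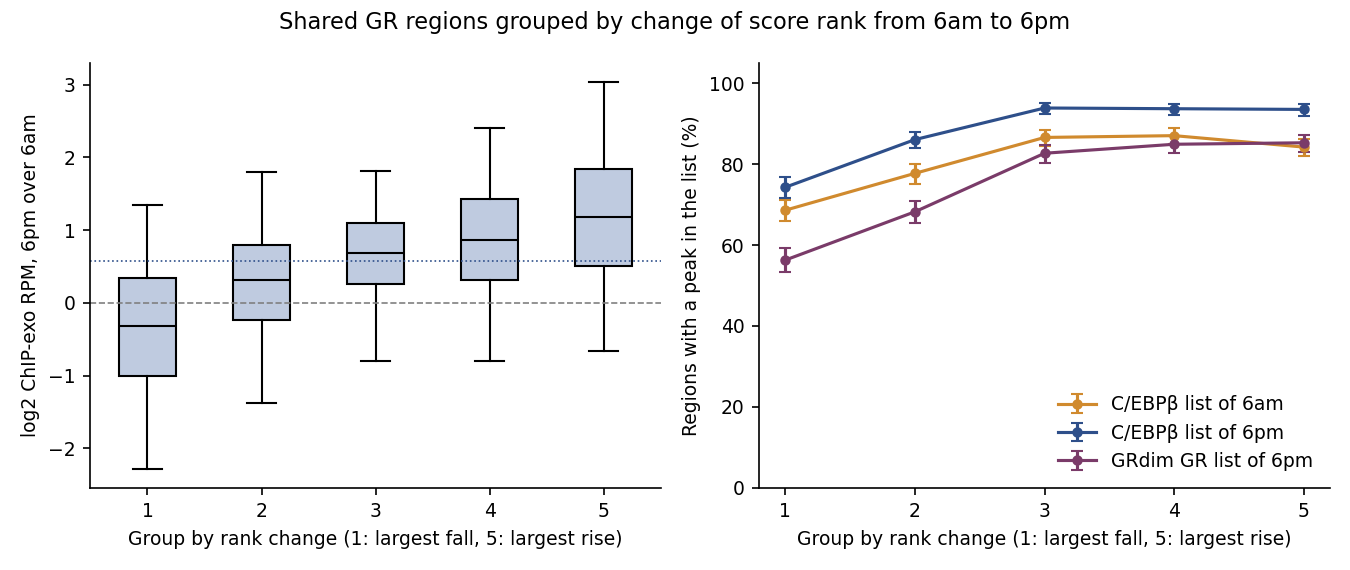
Left, log2 ratio of ChIP-exo RPM (6pm over 6am, per library tag) in 5 groups of shared regions by rank change (box: quartiles, line: median, whiskers: 5th to 95th percentile; dashed line at 0, dotted line at the median of 0.58 over all shared regions); the medians climb from -0.32 to 1.18. Right, percent of each group with a C/EBPβ peak at 6am or 6pm or a GRdim GR peak at 6pm (bars: Wilson 95% intervals), lowest in group 1 for all 3 lists.

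The individual regions with the largest shifts show both ends of this pattern. Among the 4375 shared regions with a score of at least 4 at either time, the 8 largest rises scored between 2.06 and 2.32 at 6am and between 6.58 and 9.17 at 6pm. The region with the largest, chr11:120692119-120692318, scored 2.09 and then 8.15, and its ChIP-exo borders held 75 tags (1.35 RPM) and then 141 (3.27 RPM), a ratio of 2.43 (1.82 to 3.26). At chr14:26564926-26565125 the scores were 2.09 and 7.38 and the tags 23 and 170, a ratio of 9.55 (6.16 to 15.5). The region chr6:87823199-87823398 scored 2.25 and 8.22, with 61 and 289 tags. At chr9:102626543-102626742 no border was listed at 6am and 7 borders with 155 tags at 6pm. ChIP-exo RPM was higher at 6pm at all 8, with ratios from 2.21 to 9.55 where both libraries had borders. Over all shared regions with borders at both times the median was 1.49-fold, and 32.0% were at least 2-fold higher. For 6pm scores from 6 to 10 that share was 39.6%. All 8 carried C/EBPβ at both times, beside 80.8% of all shared regions at 6am and 88.3% at 6pm. In GRdim all 8 were listed at 6pm, where 75.5% of all shared regions are, and 3 at 6am, where 48.0% are.

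The 8 largest falls scored between 4.53 and 5.67 at 6am and between 2.41 and 3.25 at 6pm. The largest was chr1:59258410-59258609, with scores of 5.67 and 2.85, where 10 borders with 234 tags (4.199 RPM) at 6am became 1 border with 16 tags (0.371 RPM) at 6pm, a ratio of 0.0884 (0.0497 to 0.147). At chr8:24546166-24546365 the tags were 237 and 18, a ratio of 0.0982 (0.0572 to 0.159). At chr14:76203699-76203898 they were 267 and 58, and at chr16:14004088-14004287 they were 312 and 76. ChIP-exo RPM was lower at 6pm at all 8, on the library scale, which is the one less favourable to a fall. All shared regions with 6pm scores from 2.5 to 3 had a median log2 ratio of -0.71 on that scale. The region chr2:141823525-141823724 had 184 tags at 6am and no listed border at 6pm, and its GRdim borders held 197 tags at 6am with none at 6pm. These 8 regions differed from the 8 rises in company as well. C/EBPβ was listed at 3 of them at 6am and 4 at 6pm, and GRdim at 6pm at 1. The rises and falls also lie apart in 6pm score, which such listing followed. Of shared regions with 6pm scores from 2.5 to 3, 57.6% carried C/EBPβ at 6am and 66.8% at 6pm, and 25.2% a GRdim peak at 6pm. For scores from 6 to 10 the shares were 88.1%, 94.3% and 87.9%. All 8 falls were listed in WT after prednisolone at 6am, as were 6 of the 8 rises, beside 55.9% of all shared regions. That share was 23.6% for 6pm scores from 2.5 to 3 and 80.1% for scores from 6 to 10, so the count of the rises lies near that of their class. Regions of both kinds were picked by their WT scores, and ChIP-exo, GRdim and C/EBPβ were not used to pick them.

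The 8633 regions listed at 6pm alone were mostly weak, with a median score of 2.70 and a maximum of 9.24, and many held ChIP-exo borders at 6am. A border was listed in 56.5% of them at 6am (55.5% to 57.6%) and in 65.1% at 6pm (64.0% to 66.1%). Both libraries had one in 41.9%, the 6pm library alone in 23.1%, the 6am library alone in 14.6%, and neither in 20.3% (1755 regions). The absence of a 6am peak therefore did not mean that no GR border was recorded at 6am. The 6am library is the deeper one, and its borders reach lower RPM. Counting only borders of at least 0.25 RPM in either library, a limit chosen after seeing the data, left 17.5% of the 6pm-only regions with a border at 6am and 52.4% at 6pm, against 83.5% and 92.9% of the shared regions. With at least 0.4 RPM the shares were 2.28% and 23.5%, against 44.0% and 80.2%.

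Where both libraries had borders, the 6pm-only regions had a higher ratio than the shared ones with all listed borders counted, but not with a minimum of 0.4 RPM. The median log2 ratio was 0.79 (1.72-fold) at 6pm-only regions against 0.58 at shared regions, or 0.22 against 0.015 when divided by listed nuclear tags. With borders of at least 0.25 RPM the medians were 1.03 (0.94 to 1.14) and 0.98 (0.94 to 1.02). With at least 0.4 RPM, which left 136 6pm-only regions, the order reversed to 0.95 (0.67 to 1.24) and 1.29 (1.24 to 1.36). These intervals are taken over regions of the same 2 libraries and are no measure of spread between animals. At 0.4 RPM only 2.28% of the 6pm-only regions kept a 6am border, so the minimum itself picks regions with strong 6am borders. The reversed order can follow from that choice and is not read further. With all borders counted, the contrast was larger at equal score. Among 6pm scores from 3 to 4 the medians were 0.85 for 6pm-only and 0.09 for shared regions, and from 4 to 6 they were 1.24 and 0.49. From 6 to 10, where 56 regions were 6pm-only, they were 1.79 and 0.79. Shared regions with 6pm scores from 2 to 2.5 had a median of -0.57, and from 2.5 to 3 of -0.71. A shared region with a low 6pm score was one that had also been listed at 6am, so the sets differ in 6am strength by construction.

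**Figure D4:**
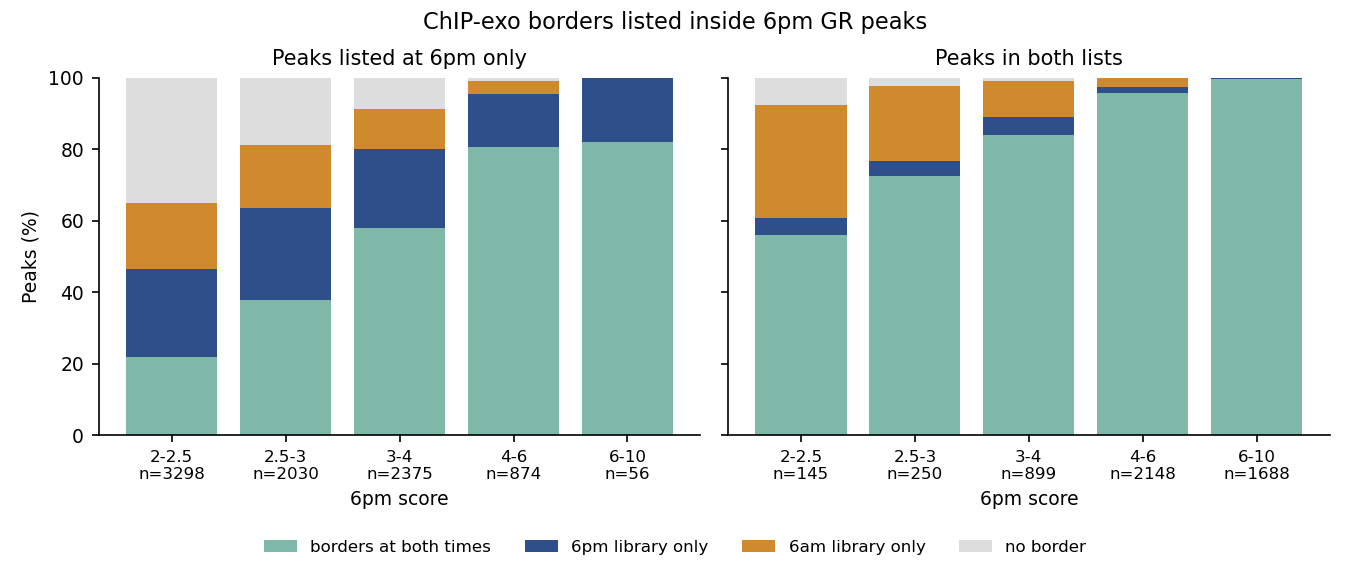
Percent of 6pm GR peaks with listed ChIP-exo borders in both libraries, in 1 or in neither, by 6pm score class, for peaks listed at 6pm only (left) and in both lists (right). The share of 6pm-only peaks with no border falls from 35.1% in the weakest class to 0 of 56 in the class from 6 to 10.

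Stronger 6pm-only regions were more often listed by C/EBPβ and in GRdim as well. The share with a C/EBPβ peak at 6pm was 71.6% at scores from 2 to 2.5 and 91.2% at scores from 4 to 6, and the share listed in GRdim at 6pm was 11.1% and 74.4%. Over all 6pm-only regions C/EBPβ was listed at 63.3% at 6am and 79.9% at 6pm. GRdim mice had a peak at 4.04% of them at 6am and at 32.3% at 6pm. In WT mice given prednisolone and collected at 6am, 7.67% were listed, against 55.9% of the shared regions. At equal score the shares lay closer, at 20.9% and 44.8% for 6pm scores from 4 to 6 and 44.6% and 80.1% for scores from 6 to 10.

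Among the 8089 6pm-only regions with no 6am peak centred within 1 kb, the 5 strongest scored between 7.42 and 8.40. At chr15:31183860-31184059, the strongest, ChIP-exo tags were 15 at 6am and 176 at 6pm, a ratio of 15.2 (8.95 to 27.7). At chr15:96836146-96836345 they were 21 and 207, and at chr2:154906883-154907082 they were 21 and 242. At chr3:129153752-129153951 no border was listed at 6am, and 8 borders with 130 tags were listed at 6pm. The exception was chr15:53218367-53218566, with a score of 7.56 and 55 and 41 tags (0.987 and 0.951 RPM), a ratio of 0.963 (0.627 to 1.47), or 0.653 (0.425 to 0.996) per listed nuclear tag. All 5 were listed in GRdim at 6pm and by C/EBPβ at 6pm. At 6am, 1 was listed in GRdim and 3 by C/EBPβ. These counts lie near the shares of their score class. Of the 56 6pm-only regions with scores from 6 to 10, 78.6% were listed in GRdim and 91.1% by C/EBPβ at 6pm. At 6am the shares were 28.6% and 66.1%.

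The 144 regions listed at 6am alone were weak (median score 2.36, maximum 5.94) and resembled the weakest shared regions in ChIP-exo. A border was listed in 93.8% of them at 6am and 64.6% at 6pm. Their summed RPM at 6pm was 0.675 times that at 6am, on 2.66 kb of borders at 0.433 RPM against 5.90 kb at 0.289 RPM. The median log2 ratio was -0.35 on the library scale (interval over regions -0.73 to 0.11, n = 90) and -0.91 per listed nuclear tag. At least 2-fold lower RPM at 6pm was seen at 32.2%, beside 8.5% of all regions. Shared regions with 6pm scores from 2 to 2.5 had a median of -0.57 with 33.3% at least 2-fold lower, and those from 2.5 to 3 had -0.71 with 38.7%. C/EBPβ was listed at 36.8% of them at 6am and 31.9% at 6pm, against 80.8% and 88.3% of all shared regions and 51.0% and 55.2% of the shared regions with 6pm scores from 2 to 2.5. Of the 144, 64 (44.4%) had a 6pm peak centred within 1 kb, so part of them lie next to a region that is listed at 6pm.

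Of the 80 with no 6pm peak within 1 kb, the strongest was chr5:75043540-75043739, with a score of 3.92 and 130 tags at 6am and 22 at 6pm, a ratio of 0.219 (0.132 to 0.345). At chr16:23981384-23981583 the 6am borders held 221 tags and at chr6:85868522-85868721 they held 104, and none was listed at 6pm in either. The 5 strongest all had lower ChIP-exo RPM at 6pm, beside a median log2 ratio of -0.35 over the 6am-only regions with borders at both times. C/EBPβ was listed at 1 of them at 6am and at 1 other at 6pm. Of all 144, the shares were 36.8% and 31.9%, so these counts tell little about the 5.

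The extremes of the ChIP-exo ratio itself are given as a description, since the ratio chose them and their intervals come from the same tags. Among 5676 regions with at least 50 tags in either library and borders in both, the highest ratio was at chr14:66337127-66337326, with 8 and 213 tags (34.4, interval 17.2 to 80.7) and ChIP-seq scores of 2.40 and 7.86. That region had no GRdim peak or border at either time. At chr1:107823542-107823741 the tags were 9 and 188 and the scores 3.12 and 6.43. The lowest ratio was at chr11:16695109-16695308, with 207 and 7 tags (0.0437, interval 0.0174 to 0.0917), listed by ChIP-seq at 6am only with a score of 2.74. At chr6:34478209-34478408 the tags were 145 at 6am and 8 at 6pm. Its scores were 2.89 and 3.29, beside medians of 2.93 at 6am and 5.30 at 6pm over the shared regions. At 5 of 5 with the lowest ratios a single border was listed at 6pm, against 8 to 11 at 6am.

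Peaks listed at 6pm alone lay in part beside regions already bound at 6am. Of the 8633, 6.30% were centred within 1 kb of a 6am peak, 32.3% within 10 kb (31.3% to 33.3%) and 69.2% within 100 kb. Those within 10 kb and those farther away differed by a few points in each list compared. The near ones also had the higher median score, 2.85 against 2.67, and listing of borders, GRdim and C/EBPβ peaks climbed with score. The 2 sets were not compared at equal score. ChIP-exo borders at 6pm were 4.71 points more frequent in the near ones (2.58 to 6.82) and GRdim peaks at 6pm 4.02 points more frequent (1.90 to 6.16), while C/EBPβ at 6pm differed by -3.11 points (-4.97 to -1.28). At 6am the borders were 3.37 points more frequent in the near ones (1.13 to 5.58), and C/EBPβ differed by -5.24 points (-7.43 to -3.05). Chains of peaks with neighbouring centres at most 10 kb apart numbered 4066 at 6am and 8447 at 6pm. Chains of 5 or more peaks numbered 48 at 6am and 326 at 6pm, and the largest held 9 and 21. With the 6pm list cut to the length of the 6am list there were 61 chains of 5 or more with a largest of 9, and 49.7% of peaks had another within 10 kb, against 49.2% at 6am. At equal length the share of peaks with a neighbour within 10 kb was thus about the same. Chains of 5 or more held somewhat more of the 6pm peaks, 6.09% against 4.62% at 6am.

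When both lists were chained together, 312 of the 327 chains with 5 or more 6pm peaks held a 6am peak. Of all 8483 chains, which include 5329 single peaks, 3949 held one. As 39.5% of 6pm peaks were shared, a chain of 5 or more would often hold a 6am peak by its size. The largest, chr14:26270658-26359957, held 21 peaks over 89.3 kb at 6pm, of which 12 were listed at 6am, and its ChIP-exo sum was 32.2 RPM at 6am and 70.3 RPM at 6pm, a ratio of 2.18 (2.06 to 2.32). The chain chr9:46005009-46048834 held 14 peaks with 9 at 6am (34.3 and 79.9 RPM). The chain around the strongest 6am region, chr2:167648999-167686332, held 12 with 10 at 6am, and its RPM ratio was 1.67. Chains filled mainly at 6pm varied: chr7:106340049-106378812 held 12 peaks with 3 at 6am and had a ratio of 2.93 (2.57 to 3.34), and chr3:137888842-137926725 held 12 with 4 at 6am and had a ratio of 2.84 (2.501 to 3.222), whereas chr4:62157094-62181106 held 10 with 3 at 6am and had a ratio of 2.06 (1.82 to 2.33). Of the 15 chains with no 6am peak, singled out after their values were seen, chr6:121116161-121135548 held 5 peaks with scores from 2.08 to 6.25, and 27 ChIP-exo tags at 6am against 283 at 6pm, a ratio of 13.5 (9.11 to 20.9). C/EBPβ was listed at 2 of its peaks at 6am and at all 5 at 6pm. All 15 held 5 peaks, and this was the one with the highest ratio: over the 14 with listed tags at 6am the ratios ran from 1.04 to 13.5 with a median of 2.57, and 11 stayed above 1 per listed nuclear tag. Single 6pm-only regions with borders in both libraries had a median log2 ratio of 0.79, or 0.22 per listed nuclear tag. Chains chosen for lacking a 6am peak are favoured to have ratios above 1, so the count of 11 is a description only. At chr11:60624840-60638978 the ratio was 2.17 (1.63 to 2.91) and at chr1:74425667-74447258 it was 1.66 (1.17 to 2.36).

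The 6pm list as a whole was spread over the chromosomes much as the 6am list was. Both lists hold the 5637 shared regions, which draws their shares together, and the intervals here treat the lists as separate. The spread of the 6pm-only peaks alone was not tested. On the 19 autosomes the 6pm list held between 2.25 times (chromosome 10) and 2.66 times (chromosome 6) as many peaks as the 6am list, and no share of the list differed by more than 0.55 points. Of 20 chromosomes the X alone had an interval of the difference that left out 0, by a margin of 0.0018 points, with no adjustment over the 20. It held 30 peaks at 6am (0.519%) and 111 at 6pm (0.778%), and 26.1% of its 6pm peaks were found at 6am (18.850% to 34.999%), against 36.8% to 43.5% on the autosomes. Its share of ChIP-exo borders was 0.527% at 6am and 0.560% at 6pm, and with the lists at equal length it held 30 and 26 peaks.

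At the same regions the strongest ChIP-exo borders often differed in position between the times, and more often where they were weak. The strongest border of each strand within 100 bp of the peak centre was taken at the 3960 shared regions that had both strands in both libraries. Both borders lay within 2 bp of their place at the other time in 15.2% of regions (14.1% to 16.3%). The share climbed with the tags of the weakest of the 4 borders, from 4.84% at 10 to 20 tags to 22.2% at 20 to 50 tags and 56.8% of the 400 regions with 50 or more. The share therefore followed the number of tags, and cannot be read as moved binding where tags are few.

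The distance from the plus-strand to the minus-strand border was broadly spread, with 2 modes at both times, near 11 bp and near 30 bp. The commonest distance was 11 bp at 6am (171 regions) and 30 bp at 6pm (121 regions). Distances from 10 to 12 bp were found at 11.4% of the 3960 regions at 6am and 5.88% at 6pm, a difference of -5.48 points (-6.60 to -4.36). Distances from 29 to 31 bp were found at 10.3% and 7.68%, a difference of -2.58 points (-3.59 to -1.56). Both modes were smaller at 6pm at the same regions, and distances above 35 bp were more frequent, at 50.1% of regions against 36.3% at 6am. The 29 to 31 bp spacing was seen at both times at 145 regions, at 6am alone at 261 and at 6pm alone at 159. With at least 20 tags on each border (1627 regions) the shares were 18.7% and 13.3% for 29 to 31 bp and 17.9% and 8.42% for 10 to 12 bp, so the difference was not smaller among the better covered regions. Library depth, list length and time of day differ together between the 2 libraries and cannot be told apart here.

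**Figure D5:**
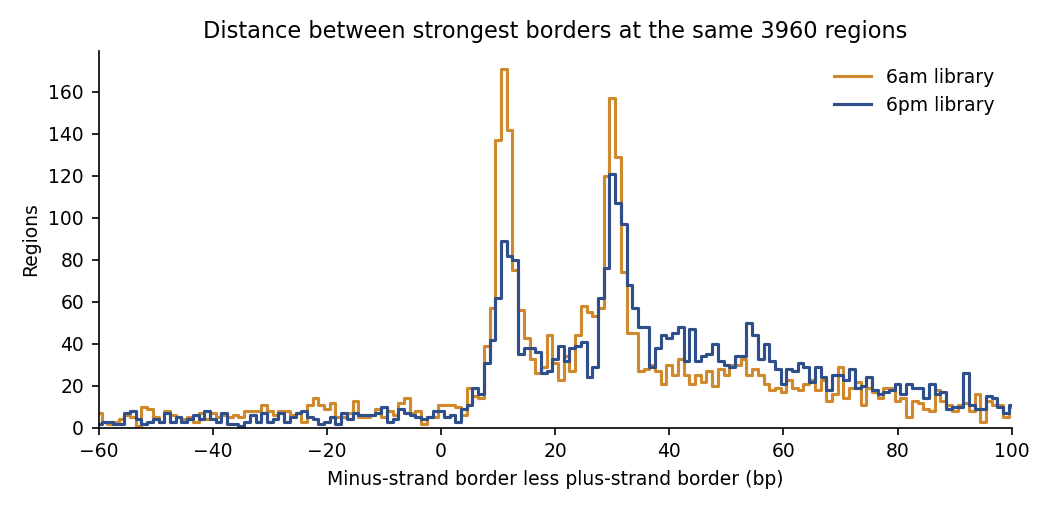
Number of the 3960 shared regions at each distance in bp between the strongest borders of the plus and minus strands, at 6am and 6pm. Both libraries peak near 11 bp and 30 bp; the peak at 11 bp reaches 171 regions at 6am and 89 at 6pm.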

How the data were processed

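The submitters' processing notes list Bowtie, HOMER and mm9 without versions or roles. The deposited ChIP-seq lists hold 200 bp intervals with a score per peak set by the authors, used only to describe, rank or filter within a list. The deposited ChIP-exo lists hold, per the file headers, a count of tags per 10 bp border and the authors' RPM value; the library size is the count divided by the RPM. ChIP-seq depth is unknown here. The regions, groups and lists were chosen with earlier results of these data known.

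Peaks were paired one to one by overlap, scores were ranked again among the pairs, and tags of borders overlapping a peak were summed and divided by the library size. A ratio was formed only where both libraries list a border. Shares have Wilson intervals, differences Newcombe intervals and tag ratios exact conditional intervals, all at 95%. Median log2 ratios have 95% intervals from the ordered values of the regions, which treat regions of the same 2 libraries as separate draws. Regions were named by rule: 8 largest rank rises and 8 falls at a score of at least 4, the 5 strongest regions of 1 list alone with no peak of the other within 1 kb, the 5 largest chains by 6pm peaks and by 6pm-only peaks, and the 5 highest and lowest ChIP-exo ratios at 50 tags or more; those on chromosome 18 are not described, and the 3 strongest 6am regions and the chain with no 6am peak were added after seeing values. Python 3.11.15, numpy 2.4.6, pandas 2.3.3 and scipy 1.17.1 were used, and the functions were tested on simulated peaks. Alternatives were other overlaps, equal list length, score minimums and other ChIP-exo scalings. Gene names, gene lists and sequences were left out because the reference at hand is another build.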

Additional observations from a re-analysis of the deposited data

Results flagged for a closer look

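The number of listed ChIP-exo borders at 6pm was 0.821 times that at 6am in WT and 2.48 times that at 6am in GRdim, opposite directions, while the ChIP-seq lists were longer at 6pm in both genotypes. That difference was not tested. Borders on the mitochondrial genome, which holds no ChIP-seq peak, numbered 866 at 6am and 848 at 6pm, with 0.841% and 0.170% of the tags of their library. Borders on the Y chromosome, which also holds no ChIP-seq peak, numbered 505 at 6am and 279 at 6pm.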

How the results depend on the processing

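No paired analysis was possible because each list is 1 pool and only the input samples, not analysed here, carry replicate numbers. The share of 6am peaks found at 6pm was 96.5% with 100 bp of overlap, 98.4% with centres within 500 bp and 78.6% at equal list length. The share of 6pm peaks found at 6am was 40.6%, 78.6% and, with scores of at least 4 in both lists, 26.5%; with that score minimum the rho of the ranks was 0.688. The share of 6pm-only peaks near a 6am peak was 22.9% within 5 kb, 43.3% within 20 kb and 45.3% for scores of at least 4. The median log2 ChIP-exo ratio was 0.54 with 1 tag added at all shared regions, 0.015 per listed nuclear tag, and 0.98 and 1.29 with borders of at least 0.25 and 0.4 RPM, limits added after seeing the data. Both strongest borders were at the same position in 2.37% of regions, within 5 bp in 19.6%, and within 2 bp in 30.7% with at least 20 tags each. The C/EBPβ difference between groups 5 and 1 was 22.4 points with 100 bp of overlap and 10.1 points with scores of at least 4 in either list. The other 13 values moved by less than their interval or 0.05 in rho. The ChIP-seq depth behind each list is unknown here, so a region absent from a list cannot be told from one below its lowest score.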
